A study of Mus musculus with 6 samples.

Results

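Collagen is hydroxylated, folded and crosslinked by a set of dedicated enzymes and chaperones, and 10 of their genes were followed here in sorted mouse bone marrow: P4ha1, P4ha2, P4ha3, Plod1, Plod2, Plod3, Serpinh1, Crtap, Fkbp10 and Lox. They were found as probe sets whose platform annotation gives 1 gene symbol. This gave 15 probe sets of 9 genes, out of 34945 such probe sets of 18193 genes on the array. Fkbp10, an endoplasmic reticulum prolyl isomerase that binds collagen, had no probe set named here and was not analysed.

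The 6 Affymetrix arrays came from 3 Grem1;TdTomato reporter mice on a C57BL/6J background, 6 to 8 weeks old and given tamoxifen by mouth. Digested marrow of every mouse gave a Grem1+ fraction, taken by its Grem1 label with no further gate stated, and a matched fraction called Grem1-, labelled as non-recombined and gated against CD45, CD31 and Ter-119. That leaves 3 Grem1+ arrays and 3 matched Grem1- arrays. Both fractions carry the reporter genotype and the tamoxifen treatment, and the labels name neither the driver of the reporter nor a control without tamoxifen. All values are log2 expression after GCRMA, a method that corrects background, normalizes arrays and summarises probes. Values below log2 4 were treated as dim, a limit that was chosen and not measured.

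Procollagen chains are modified while they enter the endoplasmic reticulum. Prolyl 4-hydroxylases make the hydroxyproline that keeps the triple helix stable at body temperature, lysyl hydroxylases make the hydroxylysine that carries sugars and shapes later crosslinks, and chaperones such as HSP47 bind the folded helix. After secretion and trimming, lysyl oxidases join the molecules of a fibril, and cartilage and bone depend on all of these steps.

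The arrays were alike in overall distribution, with medians between 3.74 and 3.81, and pairs of arrays correlated across probe sets at 0.902 to 0.922 for Grem1+. The Grem1- pairs correlated at 0.939 to 0.946 and pairs across the fractions at 0.793 to 0.846. The gap between 3' and 5' signals of Gapdh, a measure of RNA length, ran from 2.98 to 3.88 on Grem1+ arrays. On Grem1- arrays it ran from 2.31 to 2.99. The same gap of beta-actin ran from -0.03 to 0.17 on Grem1+ arrays and from 0.15 to 0.17 on Grem1- arrays. Grem1 itself stood at 4.49, 4.14 and 8.61 in Grem1+ and at 3.69, 3.75 and 3.70 in Grem1-. Its difference did not pass in limma (adjusted p = 0.245), and by mouse it was 0.81, 0.39 and 4.91. RNA of the CD45 gene was high in the Grem1- fraction, against the gate in its label. Ptprc, the CD45 gene, stood at 7.29, 9.61 and 10.56 in Grem1+ on probe set 1422124_a_at, against 12.13, 11.78 and 12.37 in Grem1- (limma adjusted p = 0.0603). On probe set 1440165_at it was dim in Grem1+, at 2.53, 3.30 and 3.71, against 9.38, 8.37 and 8.81 in Grem1-. There it was lower (limma adjusted p = 0.0106). Pecam1, the CD31 gene, was dim in Grem1+, at 3.71, 3.39 and 2.81, against 5.25, 4.23 and 4.91 in Grem1- (limma adjusted p = 0.0638). Marker genes were read by their probe set with the highest mean. Of 8 haematopoietic markers 5 were lower in Grem1+, with median levels of 5.36 to 5.81 on Grem1+ arrays and 9.26 to 9.94 on Grem1- arrays. On these probe sets none was dim on every array of a fraction. Of 10 chondrocyte markers 9 were higher, with median levels of 11.09 to 11.19 in Grem1+ against 6.96 to 7.81 in Grem1-. Of 6 osteoblast markers 5 were higher, with medians of 7.07 to 8.69 in Grem1+ against 3.95 to 4.78 in Grem1-. Fibroblast markers had 3 of 6 higher and medians of 9.31 to 9.93 in Grem1+ against 5.87 to 6.86 in Grem1-. The part of these markers and of the control signals in the results below was not tested. In sorted cells, a different share of collagen-producing cells and a different RNA level per cell cannot be told apart. Both arrays of mouse 3 gave Xist signals of 7.35 to 11.04, against at most 2.99 on the other 4 arrays, although all animals are labelled male.

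Of the 15 probe sets, 13 were above log2 4 on at least 3 arrays and were tested. In limma with the mouse as a block, 9 of them were higher in Grem1+ and 0 were lower. All 13 had an unadjusted p under 0.05 in limma, as did 6360 of all 18157 tested probe sets. Over all 18157 named probe sets tested, 10.1% were higher and 7.76% were lower at the same adjusted threshold of 0.05 (17.8% in either direction). All 13 were higher in Grem1+ in each of the 3 mice, which was not counted over all probe sets. For 11, every Grem1+ array lay above every Grem1- array, which held for 21.6% of all tested probe sets. The reverse, every Grem1+ array below every Grem1- array, held for 0 members and 20.4% of all. No tested probe set was dim on any Grem1+ array. On the Grem1- arrays 8 were never dim, 2 were dim once and 3 were dim on 2 arrays, so all 13 would have entered the test through Grem1+ alone. Of the 8 that were never dim, 6 were higher by the test. The 2 untested probe sets were another one each of Plod1 and Lox. By gene, taking the probe set with the highest mean, 7 of 9 members were higher, against 11.7% of 10151 genes, and 0 were lower, against 8.51% (20.2% in either direction).

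**Figure D1:**
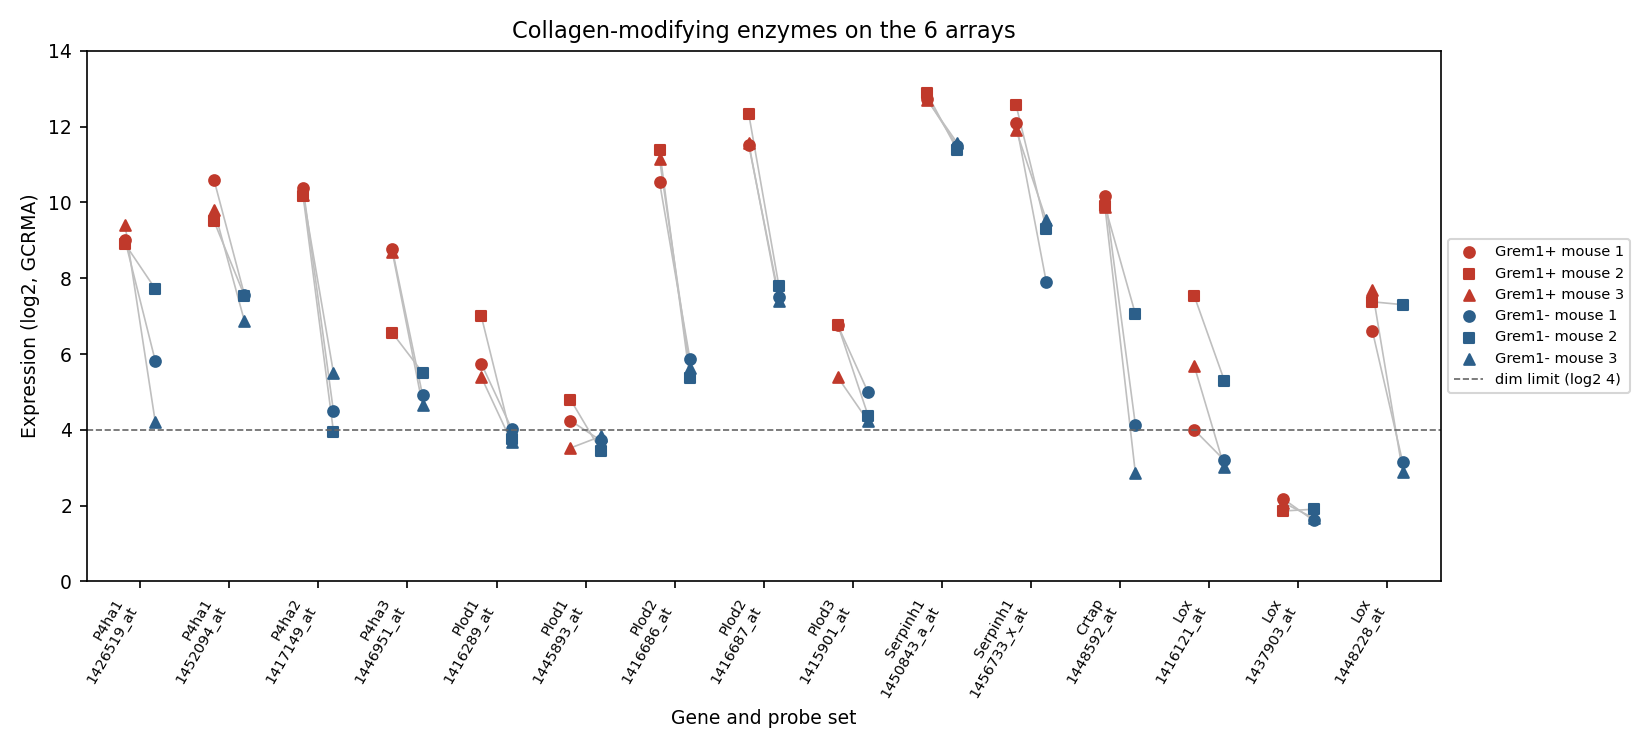
Expression (log2, GCRMA) of all 15 probe sets on the 6 arrays, with Grem1+ at the left and Grem1- at the right of each gene, a symbol per mouse, grey lines joining the fractions of a mouse and a dashed line at log2 4. Plod2 and P4ha2 show wide gaps of at least 3.74 between the fractions, Serpinh1 1450843_a_at is high in both, and the Grem1- array of mouse 2 lies far above the other Grem1- arrays for Crtap and Lox.

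The prolyl 4-hydroxylase alpha subunits, which carry the catalytic site and pair with the P4hb protein, are encoded by P4ha1, P4ha2 and P4ha3. RefSeq promoters of all of them (GRCm38.p6, 250 bases before and 50 after the start) are shown because the subunits serve the same reaction and P4ha2 had the largest difference among them. Capitals mark ACGTG or its reverse complement CACGT, the core of the hypoxia response element. P4ha1 lies at chr10:59323046-59323345 on the plus strand, P4ha2 at chr11:54100674-54100973 on the plus strand and P4ha3 at chr7:100285270-100285569 on the plus strand.
P4ha1: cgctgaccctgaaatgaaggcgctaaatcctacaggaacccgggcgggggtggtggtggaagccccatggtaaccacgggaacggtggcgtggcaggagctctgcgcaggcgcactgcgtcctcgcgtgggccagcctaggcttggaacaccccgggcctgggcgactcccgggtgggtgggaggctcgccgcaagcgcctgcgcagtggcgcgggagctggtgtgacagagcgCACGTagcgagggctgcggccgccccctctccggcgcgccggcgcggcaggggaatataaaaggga
P4ha2: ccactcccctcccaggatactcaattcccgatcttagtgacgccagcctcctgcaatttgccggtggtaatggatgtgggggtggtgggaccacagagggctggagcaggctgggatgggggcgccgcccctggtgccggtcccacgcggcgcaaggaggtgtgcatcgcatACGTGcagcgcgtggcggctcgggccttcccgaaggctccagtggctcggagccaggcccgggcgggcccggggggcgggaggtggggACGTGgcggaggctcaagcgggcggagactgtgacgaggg
P4ha3: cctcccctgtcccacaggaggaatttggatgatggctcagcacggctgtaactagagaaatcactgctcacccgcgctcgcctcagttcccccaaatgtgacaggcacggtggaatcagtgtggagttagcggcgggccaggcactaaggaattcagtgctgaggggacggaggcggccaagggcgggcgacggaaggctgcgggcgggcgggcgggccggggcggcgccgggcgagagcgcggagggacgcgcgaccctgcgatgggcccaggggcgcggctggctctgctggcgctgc
The motif occurred once in P4ha1, at position -16 from the start, and 2 times in P4ha2, at -78 and 11, and these letters were not in the P4ha3 window. Promoters of 7 members were in the table, and ACGTG on either strand was found in 4 of them, those of P4ha1, P4ha2, Plod3 and Serpinh1. It was held by 19.6% of all 32851 promoters of this length given there. The GC box GGGCGG, searched on both strands, was in 6 of the 7 and in 35.7% of all. TATAAA was in 3 (13.6% of all), CCAAT in 1 (37.4%) and ACAAT, the SOX core, in 1 (31.0%). Promoters of Plod2, Lox and Fkbp10 were not analysed here. A match describes letters and is not evidence of binding.

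P4ha2 was by far the most clearly separated of the alpha subunits. It stood at 10.37, 10.16 and 10.19 in the Grem1+ fractions of mice 1, 2 and 3, against 4.49, 3.95 and 5.50 in their Grem1- fractions. The Grem1+ arrays were nearly equal and lay 4.66 above the highest Grem1- array. The mean was 10.24 ± 0.11 in Grem1+ and 4.65 ± 0.79 in Grem1- (SD, n = 3 each), a log2 difference of 5.59 (SE 0.42) or 48.2-fold, with a limma adjusted p of 0.00992.

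P4ha1, the most widely used alpha subunit, was measured by 2 probe sets. Probe set 1452094_at gave 10.59, 9.50 and 9.81 in Grem1+, against 7.57, 7.54 and 6.88 in Grem1-. All Grem1+ arrays were above all Grem1- arrays, and the difference was 2.64 (SE 0.36), or 6.21-fold, with a limma adjusted p of 0.0199. Without mouse 3 and without the block it was 2.49 (adjusted p = 0.0564). Probe set 1426519_at gave 9.01, 8.91 and 9.42 in Grem1+, against 5.82, 7.72 and 4.21 in Grem1-. The Grem1+ arrays were alike and the Grem1- arrays ran far apart, with mouse 2 highest. At 3.20 (SE 0.84) its difference missed the threshold in limma (adjusted p = 0.0714), while the fit with no replicate block called it (adjusted p = 0.0385).

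P4ha3, an alpha subunit known for a narrower tissue range, stood at 8.76, 6.56 and 8.70 in Grem1+, against 4.91, 5.51 and 4.65 in Grem1-. Mouse 2 had both the lowest Grem1+ and the highest Grem1- value, and the fractions did not overlap. The difference was 2.98 (SE 0.72) with a 95% interval of 1.04 to 4.92. It did not pass in limma (adjusted p = 0.0597) but passed without the replicate block (adjusted p = 0.0211). By mouse the P4ha2 difference was 5.88, 6.21 and 4.68. It exceeded that of P4ha3, at 3.85, 1.05 and 4.05, and that of P4ha1 1452094_at, at 3.02, 1.96 and 2.93, in each mouse. The other P4ha1 probe set, 1426519_at, differed by 3.19, 1.19 and 5.21, and so by more than P4ha2 in mouse 3. With 3 pairs a permutation test of these gaps cannot go below a two-sided p of 0.25, so the gaps are given as values only.

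The lysyl hydroxylases were all higher in Grem1+, Plod2 by the widest margin. Plod2 encodes the enzyme that hydroxylates lysines of the collagen telopeptides, the sites from which the stable crosslinks of bone and cartilage form. Its probe set 1416686_at gave 10.53, 11.38 and 11.14 in Grem1+, against 5.88, 5.36 and 5.64 in Grem1-. Its probe set 1416687_at gave 11.53, 12.34 and 11.57 in Grem1+, against 7.50, 7.79 and 7.40 in Grem1-. Each probe set was tight within a fraction and separated the fractions without overlap. The differences were 5.39 (SE 0.39), or 41.9-fold, and 4.25 (SE 0.29), or 19.0-fold, both with a limma adjusted p of 0.00992.

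Plod1, the hydroxylase that acts on lysines in the triple helix, stood at 5.74, 6.99 and 5.39 in Grem1+ on probe set 1416289_at, against 4.03, 3.76 and 3.67 in Grem1-. The Grem1- arrays of mice 2 and 3 were dim. The difference of 2.22 (SE 0.44) passed in limma (adjusted p = 0.0400), and with dim values set to log2 4 it was 2.03. Its other probe set, 1445893_at, gave 4.24, 4.80 and 3.52 in Grem1+, against 3.72, 3.45 and 3.83 in Grem1-. These values lie near the dim limit, overlap between the fractions and were not tested.

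Plod3, which also adds glucose to galactosylated hydroxylysine, stood at 6.76, 6.77 and 5.39 in Grem1+, against 4.99, 4.38 and 4.23 in Grem1-. The lowest Grem1+ array lay 0.39 above the highest Grem1- array. The difference was 1.77 (SE 0.37), or 3.42-fold, with a limma adjusted p of 0.0440. Within each mouse both Plod2 probe sets differed by more, by 4.02 to 6.02, than Plod1 at 1.72 to 3.23 and Plod3 at 1.16 to 2.40. Without the block and without mouse 1, 2 or 3, Plod1 had adjusted p-values of 0.0846, 0.0600 and 0.0673 and Plod3 of 0.134, 0.220 and 0.0547, so neither call held when any mouse was left out. Plod2 and P4ha2 kept theirs under the same settings.

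**Figure D2:**
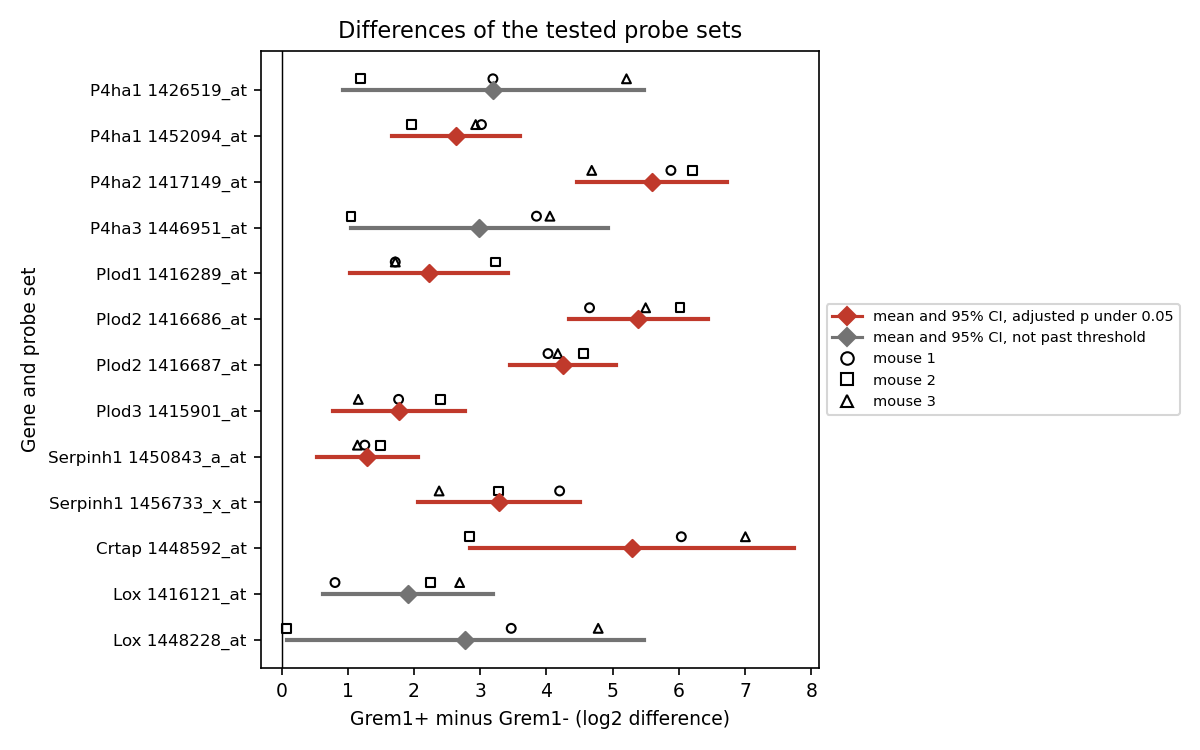
Log2 difference, Grem1+ minus Grem1-, of the 13 tested probe sets, with the mean and limma's 95% confidence interval (filled diamond and bar, red where the adjusted p was under 0.05) and the difference of each mouse as open symbols. All intervals lie above 0, from 0.08 for the lower bound of Lox 1448228_at to 4.46 for that of P4ha2, and the mice lie far apart for P4ha1 1426519_at, Crtap, P4ha3 and Lox 1448228_at.

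Serpinh1 encodes HSP47, the chaperone that binds procollagen in the endoplasmic reticulum. Its probe set 1450843_a_at gave 12.74, 12.88 and 12.71 in Grem1+, against 11.48, 11.39 and 11.57 in Grem1-. The arrays of a fraction were nearly equal and Serpinh1 was far above the dim limit in both fractions. The difference of 1.30 (SE 0.28), or 2.46-fold, had a limma adjusted p of 0.0490. Probe set 1456733_x_at, whose suffix marks probes that other transcripts may share, gave 12.10, 12.58 and 11.92 in Grem1+, against 7.91, 9.30 and 9.54 in Grem1-. It differed by more in every mouse, with a mean of 3.28 (SE 0.45), or 9.74-fold, and a limma adjusted p of 0.0201. The size of the Serpinh1 difference thus depended on the probe set, and the cause was not tested. Without the block and without mouse 1, 2 or 3, the first probe set lost its call (adjusted p = 0.0936, 0.0898 and 0.102), and the other did so without mouse 2 (adjusted p = 0.0575).

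Crtap encodes the helper protein that joins prolyl 3-hydroxylase 1 and cyclophilin B in a complex that modifies single prolines of collagen chains. It stood at 10.17, 9.89 and 9.87 in Grem1+, against 4.14, 7.06 and 2.86 in Grem1-. The Grem1+ arrays lay close together, while the Grem1- array of mouse 2 was well above the other Grem1- arrays. The mean was 9.98 ± 0.17 in Grem1+ and 4.69 ± 2.15 in Grem1- (SD, n = 3 each). The difference was 5.29 (SE 0.90) with a limma adjusted p of 0.0298, or 4.91 (30.1-fold) with the dim Grem1- value of mouse 3 set to log2 4. By mouse it was 6.04, 2.83 and 7.004. Without the block it was 4.92 without mouse 1 (adjusted p = 0.108), 6.52 without mouse 2 and 4.44 without mouse 3 (adjusted p = 0.0705).

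Lox encodes lysyl oxidase, the copper enzyme that starts crosslinking outside the cell. Among the tested member probe sets, its 1448228_at had the largest SE of the difference, which did not hold for its 1416121_at. Probe set 1448228_at gave 6.62, 7.38 and 7.68 in Grem1+, against 3.15, 7.30 and 2.90 in Grem1-. The fractions overlapped, since the Grem1- array of mouse 2 lay within the range of the Grem1+ arrays, and the differences by mouse were 3.47, 0.07 and 4.78. The mean of 2.77 (SE 0.996) did not pass in limma (adjusted p = 0.135). Without mouse 2 and without the block it was 4.12 (adjusted p = 0.0256).

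Lox probe set 1416121_at gave 4.001, 7.54 and 5.70 in Grem1+, against 3.20, 5.29 and 3.01 in Grem1-. Mouse 2 was highest in both fractions, and the differences by mouse were 0.81, 2.25 and 2.69. Their mean of 1.91 (SE 0.48) missed the threshold in limma (adjusted p = 0.0638). The mean of both probe sets differed by 2.34 and passed in limma among 10151 genes (adjusted p = 0.0408), of which 14.9% were higher in that setting. Both probe sets were dim on the Grem1- arrays of mice 1 and 3. With dim values set to log2 4 the difference was 2.12 for 1448228_at (limma adjusted p = 0.148) and 1.31 for 1416121_at (limma adjusted p = 0.174). The remaining Lox probe set, 1437903_at, was dim on all 6 arrays, at 1.86 to 2.18 in Grem1+ and 1.61 to 1.91 in Grem1-. Over the 13 tested member probe sets, the Grem1- array of mouse 2 was the highest of its fraction for 6, in the middle for 4 and the lowest for 3. It was highest for both Lox probe sets, P4ha1 1426519_at, P4ha3, Plod2 1416687_at and Crtap, and lowest for P4ha2, Plod2 1416686_at and Serpinh1 1450843_a_at. Its median chondrocyte marker level was 7.81, against 6.96 and 7.63 on the other Grem1- arrays, and its fibroblast level was 6.86, against 5.87 and 6.51. Its osteoblast level was the lowest, at 3.95, against 4.78 and 4.44. The part of these markers in the Lox and Crtap values was not tested.

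The other genes of collagen production were read from 6 lists, each gene by its probe set with the highest mean. Of 8 partners in collagen modification, 7 were higher in Grem1+ and 0 lower, with a median difference of 3.65, against -0.01 over all tested probe sets. Colgalt2, a galactosyltransferase for hydroxylysine, was higher by 4.68 (SE 0.31). P3h4, a helper of lysyl hydroxylation, was higher by 4.25 (SE 0.49). The prolyl 3-hydroxylase genes P3h2 and P3h3 were dim on every Grem1- array and at least 16.7-fold and 8.08-fold higher. The limma adjusted p-values of these 4 were at most 0.0179. P4hb, Ppib and Colgalt1 were named after their values were seen. P4hb, the beta subunit that pairs with the P4ha proteins, averaged 11.26 ± 0.09 in Grem1+ and 9.19 ± 0.29 in Grem1- (SD, n = 3 each), a difference of 2.07 (SE 0.31). Ppib, cyclophilin B, was higher by 1.71 (SE 0.28), and Colgalt1 by 3.37 (SE 0.30). The remaining partner, P3h1, the enzyme that Crtap accompanies, differed by 1.68 (SE 0.39) and did not pass in limma (adjusted p = 0.0563), while its dimmer probe set was at least 3.79-fold higher (adjusted p = 0.0231).

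Folding helpers of the endoplasmic reticulum were divided. Of 13 genes, 5 were higher, 1 was lower and 7 did not pass, with a median difference of 0.86. The prolyl isomerase genes Fkbp14, Fkbp9 and Fkbp7 were higher by 5.15 (SE 0.60), 4.25 (SE 0.58) and 2.55 (SE 0.52). The disulfide isomerase genes Pdia4 and Pdia6 were higher by 3.58 (SE 0.59) and 1.45 (SE 0.28), although a dimmer Pdia6 probe set differed by -1.44 and did not pass. Tmem38b, an endoplasmic reticulum cation channel whose loss disturbs collagen in bone, averaged 7.08 ± 0.45 in Grem1+ and 8.92 ± 0.15 in Grem1- (SD, n = 3 each), a difference of -1.83 (SE 0.35, limma adjusted p = 0.0360). Its 4 tested probe sets differed by -2.48 to -1.03, and 2 of them passed. The remaining 7 are named after their values were seen. Hspa5, encoding BiP, differed by 0.33 (95% interval -0.42 to 1.08), Hsp90b1 by 0.29 (-0.49 to 1.06) and Canx, encoding calnexin, by 0.03 (-0.89 to 0.96). Another Hsp90b1 probe set differed by 0.72 and other Canx probe sets by 0.45 and -1.13, and none of these passed. Calr, encoding calreticulin, differed by 0.86, 1.19 and 1.11 on its 3 probe sets, each with every Grem1+ array above every Grem1- array and an interval above 0, and with limma adjusted p-values of 0.109, 0.0796 and 0.0658. Pdia3, a disulfide isomerase that works with both lectin chaperones, differed by 0.60 and did not pass, while its dimmer probe set was higher by 2.97 (limma adjusted p = 0.0432). Creb3l1, a transcription factor of secretory cells, differed by 1.03 and Fkbp11 by 0.86. With no block, dropping any of the 3 mice left 2 higher folding helpers, and the Tmem38b call was lost without mouse 1 or mouse 2.

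Procollagen processing and crosslinking genes outside the members were higher where they passed. Of 6 tested processing genes 4 were higher and 0 lower, with a median of 3.84. Pcolce2 and Pcolce, enhancers of C-propeptide removal, were higher by 5.04 (SE 0.46) and 4.18 (SE 0.52), while another Pcolce probe set differed by 1.86 and did not pass. Adamts3, an N-propeptidase, was higher by 3.77 (SE 0.55), and Tll1, a C-propeptidase, was dim on every Grem1- array and at least 3.21-fold higher. Bmp1 (2.43, SE 0.77) and Furin (0.30, SE 0.31) did not pass. With no block, 2 processing genes were higher without mouse 1.

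Of 4 tested crosslinking genes, the lysyl oxidase relatives Loxl4 and Loxl3 were higher by 3.99 (SE 0.49) and 3.81 (SE 0.44), with limma adjusted p-values of 0.0173 and 0.0154. Loxl1 (0.70, SE 0.34) and Tgm2, a transglutaminase (1.20, SE 0.39), did not pass, although 1 of the 5 tested Tgm2 probe sets did. The list median was 2.51, and whether Loxl3 and Loxl4 differed from Lox in response was not tested. Of 5 genes of ascorbate and copper supply only Slc2a1, a hexose transporter that also carries oxidised vitamin C, was higher, by 1.87 (SE 0.40, limma adjusted p = 0.0478), and 0 were lower. That call was lost when any of the mice was dropped. The other Slc2a1 probe sets were higher by 2.69 and 1.62 (limma adjusted p = 0.0255 and 0.0411). Atp7a, the copper pump that loads secreted enzymes, differed by -1.67 (SE 0.54, limma adjusted p = 0.109). Its other probe set differed by -0.38, overlapped between the fractions and did not pass.

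The substrates themselves gave a mixed picture. Of 10 procollagen chain genes 6 were higher and 0 lower, with a median of 1.97. Col10a1 was higher by 4.65 (SE 0.33), Col11a2 by 4.14 (SE 0.29), Col5a2 by 3.11 (SE 0.31) and Col5a1 by 2.94 (SE 0.34), with limma adjusted p-values of at most 0.0155. The 4 that did not pass were the major fibril chains. Col1a1 differed by -0.04 (95% interval -1.12 to 1.03), Col1a2 by 0.42 (-0.39 to 1.23), Col3a1 by -0.04 (-0.88 to 0.80) and Col2a1 by 0.52 (-0.26 to 1.29). A dimmer Col3a1 probe set was lower, with a difference of -2.24 (limma adjusted p = 0.0279), or -1.41 with 2 dim Grem1+ values set to log2 4. Col2a1, Col9a1 and Col10a1 also stand in the chondrocyte marker list and Col3a1 in the fibroblast list. With no block, 2 chain genes were higher without mouse 1 and 3 without mouse 3. Differences between the enzymes and these chains were not tested.

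**Figure D3:**
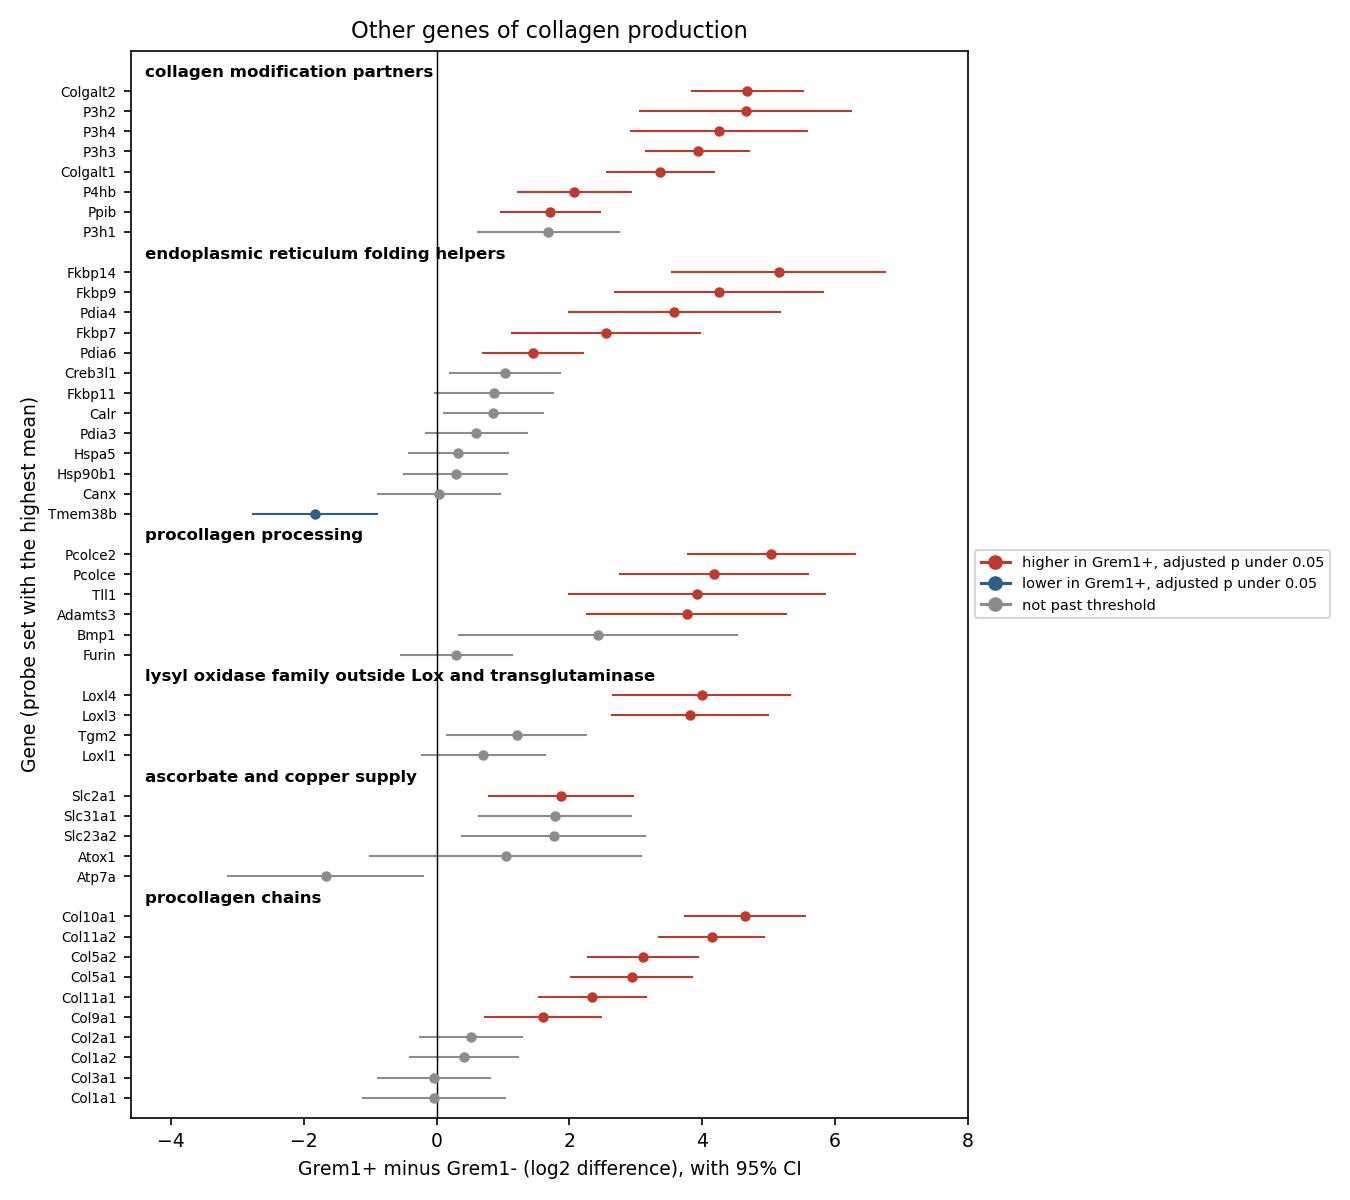
Log2 difference, Grem1+ minus Grem1-, with limma's 95% confidence interval for the tested genes of the 6 lists, as measured and without a floor for dim values (red higher and blue lower at adjusted p under 0.05, grey not past it). All but 1 of the 8 modification partners are higher, Tmem38b is the lower gene, and Hspa5, Hsp90b1, Canx, Col1a1 and Col3a1 lie near 0.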

How the data were processed

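Per the labels' protocols, RNAqueous-Micro RNA was amplified by NuGEN Ovation One-Direct, given biotin and hybridised to Affymetrix arrays. The deposited values are log2 expression per probe set for 45101 probe sets, and the submitters' processing notes name GCRMA, with version and settings not given in the sources used here. Their range of 0.798 to 14.05 fits a log2 scale. Scanner files were not used here.

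The platform annotation gave 34945 probe sets 1 symbol, 932 had several and 9160 were unnamed here, beside 64 controls. Entrez identifiers of 34741 matched a RefSeq table (GRCm38.p6), which changed 0 symbols. Named probe sets above log2 4 on at least 3 of 6 arrays (18157) were tested with limma 3.58.1 in R 4.3.3 (lmFit and eBayes, two-sided, Benjamini-Hochberg over all of them, threshold 0.05), with 2 residual and 2.28 prior degrees of freedom. The model, tested on simulated data first, had the mouse as a block, because the series design states matched samples. Deviations of same-numbered arrays from their group means correlated at 0.0137, 0.0520 and 0.0307. The pairing thus rests on that text, beside the Xist signal that only the arrays of mouse 3 carried. No 2 arrays shared more than 0.00222% of values to 6 decimals. A bound ("at least") sets dim values to log2 4 where every array of the lower fraction was dim.

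The members, lists and tests were chosen with earlier results of these data known. All probe sets of the members are given. From each other list up to 4 passing genes with the largest difference were named (or up to 2 where none passed), with any gene of a count of 5 or fewer. Grem1, Ptprc, Pecam1 and Xist served as label checks. Markers of B lineage, erythroid, granulocyte, megakaryocyte and endothelial cells gave 3, 2, 4, 1 and 0 lower genes and 0 higher ones. These were out of 5, 3, 7, 2 and 2 tested genes, each read by its probe set with the highest mean. The tested endothelial genes, Pecam1 and Tek, had every Grem1+ array below every Grem1- array. That held for 20.4% of all tested probe sets. Of the 18 alternatives, those that changed a member call are given in the closing section, together with 1 probe set per gene. The others changed no member call and were quantile normalization, median centring, cyclic loess and dim values set to log2 4. The number of arrays limits the precision.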

Additional observations from a re-analysis of the deposited data

How the results depend on the processing

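All 226 recomputed differences of the 13 member probe sets under the 18 alternatives were positive. Of these, 168 kept their side of the threshold, 47 lost a call and 11 gained one, and 0 members were lower in any setting. The sign could have changed only with quantile normalization, median centring or cyclic loess. The filters, the block and the trend leave a difference as it is. Dropping a mouse cannot reverse a difference that is positive in every mouse. With 9 member probe sets higher, 1826 named probe sets higher and 1409 lower as reported, no filter on dim probe sets gave 5, 1095 and 666, and 1 probe set per gene gave 7, 1191 and 864 over fewer tests. Without the replicate block the counts were 11, 2329 and 1876. Across all fits that dropped a mouse the ranges were 0 to 8, 0 to 1176 and 0 to 796. The 0 arose for each mouse when the block was kept, which leaves 1 residual degree of freedom, and limma then still gave 4967 to 5158 probe sets an unadjusted p under 0.05. With no block, the fits that dropped mouse 1, 2 or 3 made 5, 8 and 4 member calls, 1114, 1176 and 1122 higher and 761, 751 and 796 lower calls. Lost without the filter were Plod1 (adjusted p = 0.0849), Plod3 (0.0758), Crtap (0.0849) and Serpinh1 1456733_x_at (0.0514). Plod3 was also lost with an intensity trend (0.0538), and Serpinh1 1450843_a_at with all probe sets (0.0510) or without shared ones (0.0512). With the stricter filter (log2 above 6 on at least 3 arrays), P4ha1 1426519_at (adjusted p = 0.0472) and P4ha3 (0.0386) gained a call. Both also gained one without the block (0.0385 and 0.0211), and without the block and mouse 2 (0.0384 and 0.0177). Lox 1448228_at gained one in that last setting (0.0256). Means of a gene's probe sets passed for P4ha1 (0.0224), P4ha3 (0.0383) and Lox (0.0408). Over all alternatives, adjusted p-values ran from 0.000806 to 0.0637 for P4ha2 and from 0.000486 to 0.0637 for Plod2 1416686_at. Among the other lists, no filter gave 2 higher and 0 lower folding helpers, 2 processing genes and 0 supply genes. The supply count was 2 with the stricter filter, 3 without the block, 0 with all probe sets and 2 for gene means, and 1 supply gene was lower without the block. With a mouse dropped and no block, 2 to 5 procollagen chains, 2 folding helpers, 2 to 4 processing genes and 0 supply genes were higher, and the lower folding helper was lost without mouse 1 or 2. Gene means made 1 chain lower. The cause of these changes was not tested.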
